A study of Mus musculus with 6 samples.

Results

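The genes described here are 10 genes that mark the sensory neurons of touch and of body position in the dorsal root ganglion (DRG). They are *Pvalb*, *Whrn*, *Slc17a7*, *Necab2*, *Calb1*, *Maf*, *Mafa*, *Colq*, *Th* and *Slc17a8*, taken by gene symbol, and all 10 had a row among the 24062 genes of the files. Their read counts were compared between 3 bulk RNA-seq libraries of *Nf1fl/fl;DhhCre* mice and 3 libraries of mice also floxed for *Runx1* and *Runx3*, which the labels call double knockout (dKO). The dKO genotype is labelled Rx1flfl;Rx3fl/fl;DhhCre in one field, while the protocol and the methods add *Nf1fl/fl*, so that both groups carry floxed *Nf1* and the Cre transgene on a C57BL/6-I129 background. Cre is driven by the *Dhh* promoter and acts in Schwann cells and their precursors, and sensory neurons are not its target. The tissue is labelled DRG in one group and neurofibroma tumor in the other, and DRG/tumors for both in the methods, so that tissue label and genotype cannot be told apart. Age is not given in the sources used here.

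Touch and position sense are carried by several kinds of sensory neuron. Proprioceptors reach muscle spindles and tendon organs and buffer calcium with parvalbumin. Low-threshold mechanoreceptors (LTMRs) reach the skin, and are divided by conduction speed into the fast Aβ type, the Aδ type that winds around hair follicles, and the slow C type, which makes tyrosine hydroxylase and the glutamate transporter VGLUT3. The large fibers release glutamate loaded by VGLUT1. RUNX3 is also known as a factor of proprioceptor identity. By the design of the cross its floxed allele is removed in the Schwann cell lineage, and its removal was not tested in these libraries.

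The libraries held 12439296 to 16682194 counts, and 3 counts corresponded to 0.179 to 0.247 CPM (counts divided by the scaled library size, on the usual CPM scale). Sensory neuron genes were present in each library, with the actin regulator *Avil* at 13.7 to 33.2 CPM in *Nf1fl/fl;DhhCre* and 72.8 to 158 CPM in dKO. Several libraries stood apart. The summed level of 19 skeletal muscle genes was 20588 CPM in *Nf1fl/fl;DhhCre* replicate 2 and 52960 CPM in dKO replicate 2, against 114 to 635 CPM in the other libraries. Genes of sympathetic neurons summed to 231 CPM in *Nf1fl/fl;DhhCre* replicate 3 and to 33.3 to 49.5 CPM elsewhere. *Runx1* was at 131 to 172 CPM in *Nf1fl/fl;DhhCre* and at 84.0, 78.9 and 185 CPM in dKO replicates 1 to 3, so that the third dKO library was above and the other dKO libraries below all *Nf1fl/fl;DhhCre* libraries (adjusted p = 0.370). *Nf1* was at 273 to 334 CPM in *Nf1fl/fl;DhhCre* and 263 to 342 CPM in dKO, and *Runx3* was at 15.1 to 29.9 CPM in *Nf1fl/fl;DhhCre* and 10.3 to 13.5 CPM in dKO (adjusted p = 0.104). The labels put 1 dKO library in another sequencing run than the other 5. It is dKO replicate 3 by its sample record, but its mouse number stands in the file header of dKO replicate 2, so that either may be the library of that run. Each library was left out in turn. Of the fits without dKO replicate 2 or without dKO replicate 3, only 1 lies within the main run, and which of them is not known.

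*Slc17a7*, *Slc17a8* and *Th*, 3 of the members, were called higher in dKO, and none of the 10 was called lower. A gene was called when its adjusted p in limma-voom was below 0.05 and its change exceeded 2-fold. This was met by 2096 of 15652 genes tested (13.4%), with 8.03% called higher and 5.36% called lower. At an unadjusted p below 0.05, 5 members were higher and 0 lower, and edgeR called 3 and DESeq2 4 members higher and 0 lower. The filter on low counts passed 7 members and left out *Necab2*, *Colq* and *Mafa*. *Pvalb* and *Calb1* reached the minimum in only 2 *Nf1fl/fl;DhhCre* libraries but in all 3 dKO libraries, so that they passed partly through the group in which they were higher. The count of members called depended on single libraries. By limma-voom it was 0 without *Nf1fl/fl;DhhCre* replicate 1. That fit tested 9 members instead of 7, and 6 of the 9 were higher at an unadjusted p below 0.05. The count called was 1 without *Nf1fl/fl;DhhCre* replicate 3 or without dKO replicate 2. It was 2 without *Nf1fl/fl;DhhCre* replicate 2 or without dKO replicate 3, and 3 without dKO replicate 1.

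**Figure D1:**
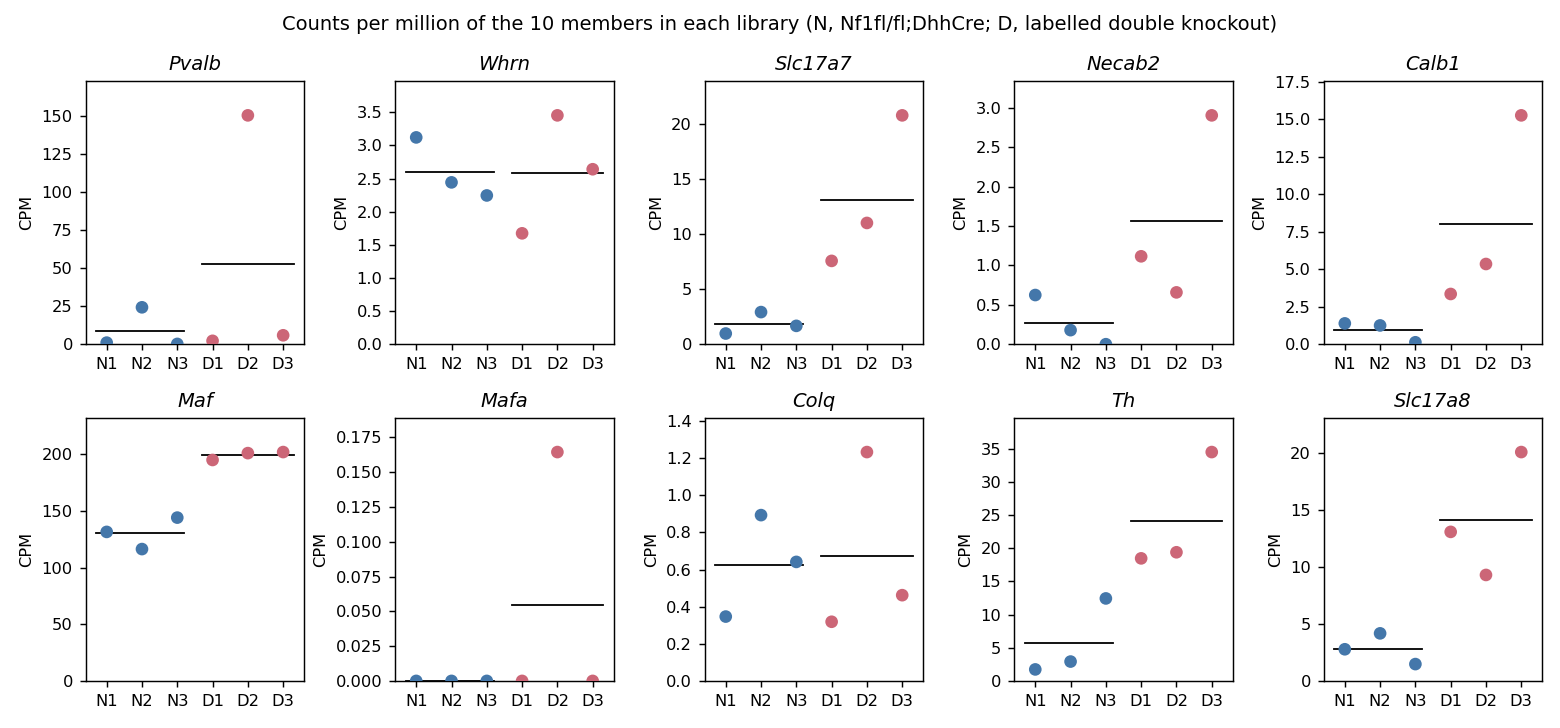
CPM of each member in the 6 libraries, with *Nf1fl/fl;DhhCre* replicates 1 to 3 in blue (N1 to N3) and dKO replicates 1 to 3 in red (D1 to D3); lines are group means and each panel has its own axis from 0. The 2 vesicular glutamate transporter genes are higher in every dKO library, while *Pvalb* is set by N2 and D2 and *Whrn* shows the same level in both groups.

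Promoter sequences are shown for the 3 called members and for *Pvalb*, since these carry the results below, in the order in which they are described. They were taken from RefSeq on GRCm38.p6, which lists 8 promoters for 6 members (*Pvalb*, *Whrn*, *Necab2*, *Th*, *Slc17a8* and *Slc17a7*), each running from 250 bases before to 50 bases after a gene start. *Calb1*, *Colq*, *Maf* and *Mafa* had no entry. Capitals mark the letters TGTGGT (the core recognized by RUNX factors) or TGCTGA (part of the site recognized by MAF factors), on either strand, or TGACGTCA (the cAMP response element, which reads the same on both strands and whose first 3 letters can be the end of TGCTGA). The windows lie at chr7:45163671-45163970 on the plus strand (*Slc17a7*), and on the minus strand at chr10:89621200-89621499 (*Slc17a8*), chr7:142899946-142900245 (*Th*) and chr15:78206351-78206650 (*Pvalb*).
Slc17a7: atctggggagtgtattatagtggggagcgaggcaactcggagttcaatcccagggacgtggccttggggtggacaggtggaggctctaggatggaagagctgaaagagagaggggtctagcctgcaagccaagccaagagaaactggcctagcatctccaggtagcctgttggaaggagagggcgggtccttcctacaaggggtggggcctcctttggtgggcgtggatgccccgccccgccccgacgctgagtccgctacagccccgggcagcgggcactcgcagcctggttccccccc
Slc17a8: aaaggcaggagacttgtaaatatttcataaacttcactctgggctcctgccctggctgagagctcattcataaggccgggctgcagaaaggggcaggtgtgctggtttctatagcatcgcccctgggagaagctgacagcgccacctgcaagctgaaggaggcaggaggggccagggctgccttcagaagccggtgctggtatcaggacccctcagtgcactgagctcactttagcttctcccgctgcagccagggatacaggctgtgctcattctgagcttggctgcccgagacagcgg
Th: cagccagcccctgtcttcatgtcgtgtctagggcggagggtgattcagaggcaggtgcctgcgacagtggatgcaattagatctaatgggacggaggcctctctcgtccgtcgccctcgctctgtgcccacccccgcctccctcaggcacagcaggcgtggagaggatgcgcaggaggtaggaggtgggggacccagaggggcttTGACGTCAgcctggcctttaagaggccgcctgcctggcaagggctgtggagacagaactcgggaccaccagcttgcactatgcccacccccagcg
Pvalb: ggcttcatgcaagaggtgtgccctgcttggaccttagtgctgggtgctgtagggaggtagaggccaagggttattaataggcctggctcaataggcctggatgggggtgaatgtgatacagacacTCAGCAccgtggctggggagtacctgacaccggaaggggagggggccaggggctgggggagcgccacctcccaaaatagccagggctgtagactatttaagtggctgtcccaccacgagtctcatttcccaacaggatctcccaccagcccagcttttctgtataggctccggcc

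None of the 8 promoters held TGTGGT, which 16.8% of all 32851 promoters of the same length held. TGCTGA was found in 3 of the 8, in both *Pvalb* promoters and in the second *Slc17a8* promoter, and in 19.5% of all promoters. TGACGTCA was found in 1, at bases 206 to 213 of the *Th* window, and in 1.79% of all promoters. These are matches of letters only, within 300 bases, and the binding of any factor was not measured in these libraries.

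*Slc17a7* encodes VGLUT1, which fills synaptic vesicles with glutamate in proprioceptors and large mechanoreceptors (chromosome 7, 45163949 to 45176142, plus strand, GRCm38). It was at 0.971, 2.92 and 1.67 CPM in *Nf1fl/fl;DhhCre* replicates 1 to 3 and at 7.57, 11.0 and 20.8 CPM in dKO replicates 1 to 3. Every dKO library lay above every *Nf1fl/fl;DhhCre* library, as was so for 21.8% of all genes tested. The group means were 1.85 ± 0.987 CPM and 13.1 ± 6.86 CPM (SD, n = 3 each), and *Slc17a7* rose by a log2 fold change of 2.82 (limma-voom, SE 0.64, adjusted p = 0.0262). It was called under each of the 8 other settings with all libraries, with changes from 2.74 to 2.98. It was called in 3 of the 6 fits that left out 1 library, with changes from 2.38 to 3.28 and adjusted p from 0.0187 to 0.0835, and missed without *Nf1fl/fl;DhhCre* replicate 1 or 3 or without dKO replicate 2.

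*Slc17a8* encodes VGLUT3, the glutamate transporter of C-LTMRs (chromosome 10, 89574020 to 89621253, minus strand). It was at 2.77, 4.17 and 1.48 CPM in the *Nf1fl/fl;DhhCre* libraries, against 13.1, 9.29 and 20.1 CPM in dKO. The groups again did not overlap, and dKO replicate 3 was the highest for both transporters. *Slc17a8* rose by 2.39 on the log2 scale (limma-voom, SE 0.49, adjusted p = 0.0205), a 5.04-fold ratio of the group means. It was called under each of the 8 other settings with all libraries and in 4 of the 6 fits that left out 1 library, and missed without *Nf1fl/fl;DhhCre* replicate 1 or 3. Without both muscle-rich libraries, a choice made after seeing the data, it was the only member called (log2 fold change 3.03, adjusted p = 0.0215 from limma-voom).

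*Th* encodes tyrosine hydroxylase, the rate-limiting enzyme of catecholamine synthesis, which marks C-LTMRs among DRG neurons and is also made by sympathetic neurons (chromosome 7, 142892752 to 142931128, minus strand). It was at 1.73, 2.92 and 12.4 CPM in the *Nf1fl/fl;DhhCre* libraries, against 18.5, 19.4 and 34.5 CPM in dKO. The dKO libraries were all higher, and *Nf1fl/fl;DhhCre* replicate 3 stood above the other libraries of its group. *Th* rose by 2.53 on the log2 scale (limma-voom, SE 0.62, adjusted p = 0.0326). It was not called by edgeR (2.08, adjusted p = 0.0795), and over the 8 other settings with all libraries its adjusted p ranged from 0.00879 to 0.0795. It was called in 2 of the 6 fits that left out 1 library (*Nf1fl/fl;DhhCre* replicate 3 or dKO replicate 1), with changes from 2.01 to 3.38 and adjusted p from 0.0341 to 0.106.

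The same *Nf1fl/fl;DhhCre* replicate 3 was the library high in genes of sympathetic neurons. *Dbh*, which converts dopamine to noradrenaline, was at 31.9 CPM in that library, at 0.486 CPM in replicate 1, and at 0 in replicate 2 and in all dKO libraries. The noradrenaline transporter gene *Slc6a2* was at 156 CPM against 6.73 to 19.0 CPM. Of the 7 sympathetic genes, 2 passed the filter and none passed the test in limma-voom, edgeR or DESeq2, with 0 at an unadjusted p below 0.05. Their summed level was 33.3 to 231 CPM in *Nf1fl/fl;DhhCre* and 34.1 to 43.4 CPM in dKO, where the defining gene *Dbh* was at 0. Without *Nf1fl/fl;DhhCre* replicate 3 the *Th* change was 3.38 (limma-voom, adjusted p = 0.0341).

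*Pvalb* encodes parvalbumin, the calcium buffer of proprioceptors and also of fast skeletal muscle (chromosome 15, 78191114 to 78206400, minus strand). It was at 1.04, 24.3 and 0.192 CPM in the *Nf1fl/fl;DhhCre* libraries, against 2.23, 151 and 5.88 CPM in dKO. The highest library was 783-fold above the lowest, but the lowest had 3 counts, at the floor, so that this fold is not exact. In each group 1 library was far above the rest. The groups overlapped, and the log2 fold change of 2.63 (SE 2.44, 95% interval -3.09 to 8.36) did not pass the test (limma-voom, adjusted p = 0.484). The high *Pvalb* libraries were those rich in muscle RNA. *Myh4*, the myosin of fast fibers, was at 822 CPM in *Nf1fl/fl;DhhCre* replicate 2 and 8227 CPM in dKO replicate 2, and at 0 to 37.3 CPM elsewhere. The skeletal actin gene *Acta1* was at 178 and 547 CPM in those libraries and at 0.0641 to 5.02 CPM in the others, and the muscle creatine kinase gene *Ckm* at 138 and 641 CPM against 0.449 to 4.62 CPM. The giant sarcomere protein gene *Ttn* was the most abundant of the list, at 16439 and 36867 CPM in them. None of the 19 muscle genes was called in limma-voom, edgeR or DESeq2, and 0 had an unadjusted p below 0.05 in limma-voom. With 1 muscle-rich library in each group, these tests had little power to tell the groups apart. The fitted change was toward dKO for 18 of the 19, and the 95% interval of *Myh4* ran from -5.16 to 14.7.

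With the muscle score of each library as a covariate, *Pvalb* was called, at a log2 fold change of 1.42 (limma-voom, adjusted p = 0.0178), which was the only one of its 8 other settings with all libraries to do so. DESeq2 gave no adjusted p for *Pvalb*, and the other settings with all libraries gave 0.362 to 0.503. Leaving out 1 library moved its change from 0.97 (without dKO replicate 2) to 4.64 (without *Nf1fl/fl;DhhCre* replicate 2), without a call. Without both muscle-rich libraries its change was 3.0 (limma-voom, SE 1.04, adjusted p = 0.114), on the remaining values of 1.04 and 0.192 CPM against 2.23 and 5.88 CPM. These rest on 15 and 3 counts against 28 and 89 counts.

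**Figure D2:**
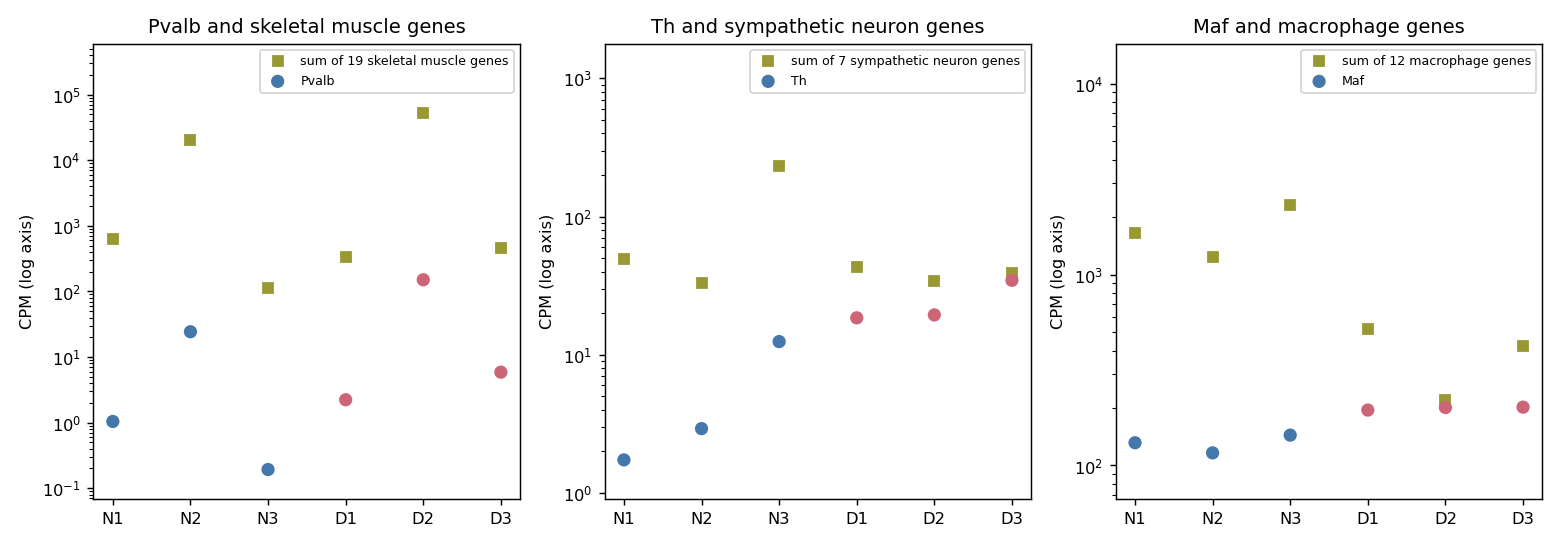
*Pvalb*, *Th* and *Maf* (circles, blue for *Nf1fl/fl;DhhCre* and red for dKO) beside the summed CPM of skeletal muscle, sympathetic neuron and macrophage genes (squares) in the same libraries, on log axes. *Pvalb* is highest in the 2 libraries with the most muscle RNA, *Th* in *Nf1fl/fl;DhhCre* is highest in the library with the most sympathetic RNA, and *Maf* is higher in dKO where macrophage genes are lower.

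*Whrn* encodes whirlin, a scaffold protein of hair cell stereocilia that is also made by proprioceptors (chromosome 4, 63414910 to 63495991, minus strand). It was at 3.12, 2.44 and 2.25 CPM in the *Nf1fl/fl;DhhCre* libraries, against 1.67, 3.45 and 2.64 CPM in dKO, so that the groups overlapped. The log2 fold change was -0.04 (limma-voom, SE 0.39, adjusted p = 0.952), with a 95% interval from -0.95 to 0.87. The interval does not reach a 2-fold change in either direction, and *Whrn* was not called in any setting, although its sign turned in 2 of the fits that left out 1 library.

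*Calb1* encodes calbindin, a calcium-binding protein found in part of the Aβ mechanoreceptors (chromosome 4, 15881264 to 15908064, plus strand). It was at 1.39, 1.25 and 0.128 CPM in the *Nf1fl/fl;DhhCre* libraries, against 3.35, 5.35 and 15.2 CPM in dKO. The groups did not overlap, but the *Nf1fl/fl;DhhCre* values rest on 20, 21 and 2 counts. The lowest library is under the floor of 3 counts, so that no exact fold separates it from the highest. The fitted log2 change was 3.37 (limma-voom, SE 1.13, adjusted p = 0.0778), with a 95% interval from 0.71 to 6.03. *Calb1* was thus not called here, but it was called by edgeR (3.11, adjusted p = 0.0447) and by DESeq2 (3.11, adjusted p = 0.00106). In the fits that left out 1 library its change was 2.39 to 3.93 and its adjusted p 0.0587 to 0.177.

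*Necab2* encodes a neuronal calcium-binding protein of Aβ mechanoreceptors (chromosome 8, 119446719 to 119472640, plus strand) and had too few counts for the test. It had 9, 3 and 0 counts in the *Nf1fl/fl;DhhCre* libraries and 14, 8 and 44 counts in the dKO libraries. As CPM these are 0.624, 0.179 and 0 against 1.12, 0.658 and 2.90, without overlap between the groups but close together for *Nf1fl/fl;DhhCre* replicate 1 and dKO replicate 2. With every gene that had a count kept in the fit, the log2 change of *Necab2* was 3.09 (limma-voom, SE 1.10, adjusted p = 0.102).

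*Maf* encodes c-MAF, a leucine zipper factor needed for rapidly adapting mechanoreceptors and made as well by macrophages and other cells (chromosome 8, 115682942 to 115707794, minus strand). Per length it was the most abundant member in the 4 libraries that were not rich in muscle RNA, and *Pvalb* exceeded it in the other 2. *Maf* was at 132, 116 and 144 CPM in the *Nf1fl/fl;DhhCre* libraries, against 195, 201 and 202 CPM in dKO, with little spread among the latter. The groups did not overlap, and the ratio of means was 1.53. The log2 fold change of 0.62 (SE 0.12, 95% interval 0.33 to 0.90) passed the p threshold (limma-voom, adjusted p = 0.0181) but was below 2-fold, so that *Maf* was not called. Its change was 0.54 to 0.73 over all other settings, and its adjusted p missed the threshold without *Nf1fl/fl;DhhCre* replicate 1 (0.0649), without dKO replicate 2 (0.0530) and without both muscle-rich libraries (0.0656). An antisense gene, *Gm15655*, shares 440 exon bases with *Maf*, and the use of strand in the counting is not stated.

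Macrophage genes moved the other way in the same libraries. Of 13 macrophage genes, 12 were in the files, and 10 of these were called lower and 0 higher by limma-voom, with 0 higher by edgeR, by DESeq2 or at an unadjusted p below 0.05. Their summed level was 1233 to 2312 CPM in *Nf1fl/fl;DhhCre* and 219 to 519 CPM in dKO. *Csf1r*, the receptor that macrophages need for survival, was at 131 to 331 CPM against 30.7 to 66.5 CPM, *C1qa* at 4.23 to 7.18 against 0.247 to 1.52 CPM, and *Itgam*, the most abundant of the list, at 468 to 936 against 46.0 to 126 CPM. Which cells held the *Maf* RNA was not tested.

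*Mafa* encodes the related factor MAFA, which marks fast-adapting mechanoreceptors during development (chromosome 15, 75745490 to 75748228, minus strand). It had 0 counts in 5 libraries and 2 counts in dKO replicate 2, under the floor of 3 counts in each library, so that no difference was detectable at this depth. *Colq*, which encodes the collagen tail of acetylcholinesterase and marks Aδ-LTMRs (chromosome 14, 31523082 to 31591343, minus strand), was also below the filter. It had 5, 15 and 10 counts in the *Nf1fl/fl;DhhCre* libraries and 4, 15 and 7 counts in the dKO libraries, or 0.347 to 0.894 CPM against 0.319 to 1.23 CPM. Its highest library in each group was the one rich in muscle RNA, a tissue in which COLQ anchors the enzyme at the neuromuscular junction. With every counted gene kept, its log2 change was -0.06 (limma-voom, SE 0.71, adjusted p = 0.964). *Colq* shares 199 exon bases with the gene *Gm49387* on the same strand.

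Compared per kilobase of exon, the members ranged over a wide span of levels. In the dKO libraries *Maf* was at 23.7 to 24.5 CPM per kilobase, followed by *Th* at 7.82 to 14.6, *Slc17a8* at 1.97 to 4.25, *Slc17a7* at 1.4 to 3.86 and *Calb1* at 0.691 to 3.15. The ranges of neighbours from *Slc17a8* downward overlapped. Within each dKO library *Slc17a7* was above *Calb1*, *Calb1* above *Necab2* and *Whrn* above *Colq*, whereas *Slc17a8* and *Slc17a7*, and likewise *Necab2* and *Whrn*, changed places in dKO replicate 2. *Necab2* followed at 0.314 to 1.39, *Whrn* at 0.228 to 0.471 and *Colq* at 0.0838 to 0.324 CPM per kilobase. *Pvalb* had no stable place, at 2.14 to 145 CPM per kilobase. In the *Nf1fl/fl;DhhCre* libraries *Slc17a7* (0.180 to 0.541 CPM per kilobase) and *Whrn* (0.306 to 0.425) overlapped, whereas in dKO all *Slc17a7* values were above those of *Whrn*. Exon lengths were taken from GENCODE M21 and may differ from those of the counting.

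The members were then set against the neuronal RNA of each library, because neuronal genes as a group were higher in dKO. In bulk tissue more cells of a type and more RNA per cell cannot be told apart. All 15 pan-neuronal genes were called higher, with a median log2 fold change of 2.40, against 0.02 over all genes tested. Among them *Tubb3*, neuronal tubulin, changed by 1.26, the nuclear protein gene *Rbfox3* by 2.38, and *Nefl*, the most abundant, by 2.40. Of 15 nociceptor genes, which mark the pain and itch neurons, 12 were called higher and 0 lower by limma-voom (median 2.30), with 0 lower by edgeR, by DESeq2 or at an unadjusted p below 0.05. *Mrgprd* changed by 3.31, *Calca* by 1.99 and *Scn10a*, with the highest dKO level, by 2.79. The tested members had log2 fold changes from -0.04 to 3.37, with a median of 2.53.

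Relative to the mean log2 CPM of the pan-neuronal genes in the same library, *Slc17a8* was at -3.69 ± 0.43 in *Nf1fl/fl;DhhCre* and at -3.60 ± 0.39 in dKO (SD, n = 3 each). The difference was 0.09 (exact permutation test, two-sided p = 0.7, and 0.817 adjusted over the 7 tested members). *Slc17a7* differed by 0.54 (exact p = 0.2), or by 0.33 (exact p = 0.3) without *Nf1fl/fl;DhhCre* replicate 1 and 0.73 (exact p = 0.1) without *Nf1fl/fl;DhhCre* replicate 3, and *Calb1* by 1.01 (exact p = 0.4). The *Calb1* difference rested on single libraries, at 0.19 without *Nf1fl/fl;DhhCre* replicate 3 (exact p = 0.8) and 1.73 without *Nf1fl/fl;DhhCre* replicate 1 (exact p = 0.1). *Th* differed by 0.25 (exact p = 1), with *Nf1fl/fl;DhhCre* replicate 3 at -1.05 the other *Nf1fl/fl;DhhCre* libraries at -3.91 and -4.25, and the dKO libraries between -2.90 and -2.67. Without *Nf1fl/fl;DhhCre* replicate 3 the *Th* groups did not overlap and differed by 1.26 (exact p = 0.1, the smallest possible). With all libraries, the groups of these 4 members overlapped on this scale. *Pvalb* ranged from -6.83 to 0.07 and differed by 0.53 (exact p = 0.7).

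*Whrn* and *Maf* did not rise with the pan-neuronal genes, as most genes did not. On this scale the median of all genes tested was -2.26, and 83.7% of them were lower in every dKO library than in every *Nf1fl/fl;DhhCre* library, so that the values of *Whrn* and *Maf* are those of the bulk of genes and restate their small fold changes. *Whrn* was at -3.07, -4.51 and -3.50 in the *Nf1fl/fl;DhhCre* libraries, against -6.11, -5.36 and -6.59 in dKO, a difference of -2.33 without overlap. *Maf* was at 2.31, 1.05 and 2.48 against 0.73, 0.49 and -0.35, a difference of -1.66 without overlap. For both, p was 0.1 in the two-sided exact permutation test, which cannot go lower with 3 libraries a group, and 0.35 after adjustment over the 7 members.

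**Figure D3:**
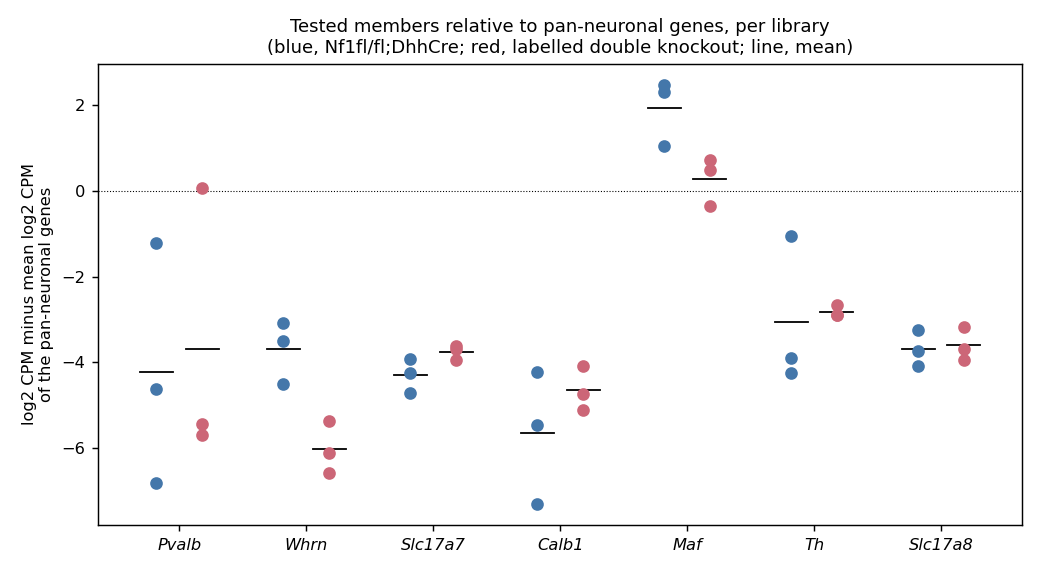
Log2 CPM of the 7 tested members minus the mean log2 CPM of 15 pan-neuronal genes in the same library; points are libraries (blue for *Nf1fl/fl;DhhCre*, red for dKO) and lines are group means. *Slc17a8* sits at -3.69 and -3.60, while *Whrn* and *Maf* are lower in every dKO library than in every *Nf1fl/fl;DhhCre* library, as are 83.7% of all genes tested.

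Other genes of the same neuron types were described from a list of 26, of which 24 passed the filter. Of these 11 were called higher in dKO, against 8.03% of all genes tested, and 0 lower in limma-voom, edgeR calling 10 and DESeq2 13 higher and 0 lower, and 2 (*Heg1* and *Zfp521*) were lower at an unadjusted p below 0.05. The median log2 fold change was 1.53, and the range was from -0.70 to 3.04. *Ntrk3*, the neurotrophin-3 receptor TrkC of proprioceptors, was at 34.0 to 69.9 CPM in *Nf1fl/fl;DhhCre* and 126 to 159 CPM in dKO, and rose by 1.49 (limma-voom, SE 0.26, adjusted p = 0.0134). *Nefh*, the heavy neurofilament of large fibers, rose from 72.7 to 124 CPM to a range of 287 to 695 CPM, a log2 change of 2.19 (SE 0.37). *Ret*, the GDNF family receptor of mechanoreceptors and nociceptors, rose by 2.52 (SE 0.45). The largest calls were *Pou4f2* at 3.04 (SE 0.65), a POU factor of sensory and retinal neurons, and *Cntnap2* at 2.55 (SE 0.36), a protein of the axon beside the node of Ranvier. *Pou4f2* had 31, 34 and 9 counts in the *Nf1fl/fl;DhhCre* libraries and 98, 120 and 273 counts in dKO. Its *Nf1fl/fl;DhhCre* replicate 3 was under the minimum of the filter, so that it passed partly through the group in which it was higher. *Kcnc1* was called although its groups overlapped.

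Some genes of the list were not called. *Heg1* was at 359 to 482 CPM in *Nf1fl/fl;DhhCre* and 207 to 338 CPM in dKO, lower in every dKO library, and passed the p threshold but not the fold (log2 difference -0.70, limma-voom SE 0.20, adjusted p = 0.0496). *Gfra2*, a receptor subunit for neurturin, likewise passed the p threshold below 2-fold, at 104 to 136 against 153 to 242 CPM (log2 difference 0.69, limma-voom adjusted p = 0.0472). *Piezo2*, the ion channel of touch and proprioception, was at 208 to 245 CPM in *Nf1fl/fl;DhhCre* and 300.3 to 573 CPM in dKO, a log2 change of 0.80 (limma-voom, SE 0.24, adjusted p = 0.0559). *Ntrk2*, the BDNF receptor TrkB of Aδ-LTMRs, differed by -0.38 (SE 0.19, adjusted p = 0.187), and *Etv1*, a factor of proprioceptor development, by -0.18 (SE 0.20, adjusted p = 0.552). *Ntrk2* and *Etv1* were at 332 to 632 CPM and 202 to 342 CPM, and are also known from glia, whose share of these counts was not tested. Of this list, 4 genes were called without *Nf1fl/fl;DhhCre* replicate 1, 7 without *Nf1fl/fl;DhhCre* replicate 3, 8 to 13 without each other library, and 10 without both muscle-rich libraries.

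**Figure D4:**
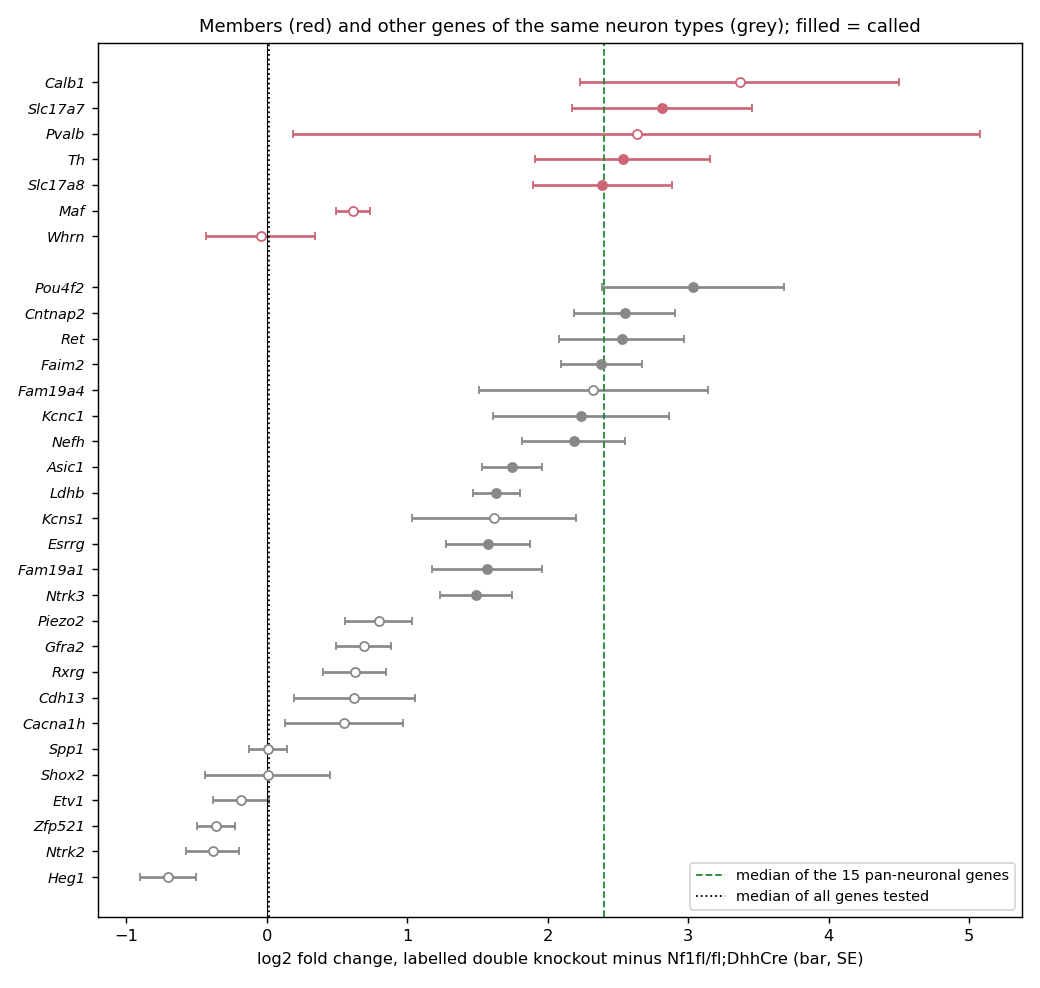
Log2 fold changes (dKO minus *Nf1fl/fl;DhhCre*, bars are SE) of the 7 tested members in red and of 24 other genes of the same neuron types in grey, with filled points for called genes. The called members *Slc17a7*, *Slc17a8* and *Th* lie between 2.39 and 2.82, beside the pan-neuronal median of 2.40 (dashed), and *Maf* and *Whrn* lie well below it. *Calb1* (3.37) and *Pvalb* (2.63, SE 2.44) were not called. The *Pvalb* value ranged from 0.97 to 4.64 when 1 library was left out.

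Spinal cord, which also holds neurons with parvalbumin, calbindin or VGLUT3, was checked by 8 genes. *Slc6a5*, *Slc32a1* and *Mnx1* were at 0 in all libraries, and *Chat* and *Mog* were at 0 to 0.164 and 0 to 0.179 CPM. *Slc5a7*, the choline transporter of cholinergic neurons, was at 0.179 to 1.39 CPM in *Nf1fl/fl;DhhCre* and 0.493 to 3.37 CPM in dKO (log2 difference 1.74, limma-voom adjusted p = 0.268). *Olig2*, a factor of the oligodendrocyte lineage, had 0 counts in the *Nf1fl/fl;DhhCre* libraries and 5, 1 and 0 counts in dKO. The summed level was 1.80 to 4.79 CPM in *Nf1fl/fl;DhhCre* and 8.45 to 28.4 CPM in dKO, most of it from *Aqp4*, a water channel gene at 1.22 to 4.35 against 5.82 to 27.6 CPM. Of 2 genes of this list that passed the filter, 0 were called by limma-voom, 1 by edgeR and 1 by DESeq2, and 1 was higher at an unadjusted p below 0.05. The Schwann cell gene *Sox10* was at 195 to 241 CPM in *Nf1fl/fl;DhhCre* and 200 to 256 CPM in dKO.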

How the data were processed

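Bulk RNA-seq was made from DRG/tumors with 3 libraries per genotype. The authors amplified total RNA (NuGEN Ovation), made Nextera XT libraries, aligned paired-end reads to mm10 with TopHat and deposited raw read counts per gene from featureCounts. The annotation, the use of strand and the handling of reads with several alignments are not given in the sources used here. Reads amplified without molecular identifiers are not independent molecules, so that floors of 3 counts cover counting error only.

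Counts were analyzed with limma 3.58.1 and edgeR 4.0.16 (R 4.3.3), using filterByExpr (minimum count 10, total 15), TMM scaling, limma-voom on genotype without covariates, and Benjamini-Hochberg adjustment over all genes tested. Genes with adjusted p below 0.05 and a change above 2-fold were called. CPM use TMM-scaled library sizes. Log2 CPM relative to pan-neuronal genes used a prior count of 0.5 (2 as an alternative) and exact permutation tests of 1 value per library. Scripts were tested on simulated data. Replicates were numbered in accession order and pair nothing, and in 4 of 6 libraries the mouse number of the title differs from that of the file header, within a genotype. Positions and exon lengths are from GENCODE M21 (GRCm38) and promoters from RefSeq. Other settings were DESeq2 1.42.0, the quasi-likelihood test of edgeR, limma-voom with scaling by total count alone or by size factors of DESeq2, genes above 1 CPM in 3 or more libraries, no filter beyond a count above 0, quality weights per sample, the muscle score as covariate, and leaving out each library. The rule for named genes took all 10 members, 6 preset genes and the 3 largest calls per direction of the other neuron list, and the defining and most abundant genes of each marker list. *Myh4*, *Slc6a2*, *Avil*, *Kcnc1*, *Heg1*, *Zfp521*, *Gfra2*, *Sox10* and the spinal cord genes other than *Chat*, *Mog* and *Aqp4* were named after their values were seen. Some marker genes of the lists are not reported here. The members and lists were chosen with earlier results of these data known. Plots used Python 3.11.15 and matplotlib 3.10.9.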

Additional observations from a re-analysis of the deposited data

How the results depend on the processing

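With all 6 libraries kept, the number of members called stayed at 3 or 4 over 8 settings, and the counts over all genes and over the other mechanoreceptor and proprioceptor genes stayed within 1.5 times those reported. The set of members changed, and only *Slc17a7* and *Slc17a8* were called in each of the 8 settings. By edgeR *Calb1* was called instead of *Th*, DESeq2 added *Calb1*, and the muscle covariate added *Pvalb*. Without each library in turn, the number of genes called ranged from 362 (without *Nf1fl/fl;DhhCre* replicate 1) to 2285, falling to 1033 without *Nf1fl/fl;DhhCre* replicate 3 and 1018 without dKO replicate 2. The number of members called ranged from 0 to 3, and that of the other neuron genes from 4 (without *Nf1fl/fl;DhhCre* replicate 1) to 13, with 7 without *Nf1fl/fl;DhhCre* replicate 3. Fewer samples enter these fits. Without both muscle-rich libraries, chosen after seeing the data, 1 member was called.

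Some values near 0 changed sign, and the cause was not tested. The *Whrn* log2 fold change ranged from -0.25 to 0.24 over the fits that left out 1 library. Relative to the pan-neuronal genes and without 1 library, *Pvalb* ranged from -1.35 to 2.03, *Th* from -0.34 to 1.26 and *Slc17a8* from -0.12 to 0.32, and *Slc17a8* was at -0.042 with the median of the list. No paired analysis was possible because the labels give no replicate numbers shared by the groups. Depth limits *Mafa*, *Colq* and *Necab2*, which had 0 to 44 counts per library.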
